A study of Mus musculus with 4 samples.

Results

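Regulators of G protein signaling (RGS proteins) speed the hydrolysis of GTP by the alpha subunits of heterotrimeric G proteins, so that a signal from a receptor ends sooner. In the heart they act on the Gq proteins that follow angiotensin, endothelin and alpha-1 adrenergic receptors and on the Gi proteins that follow muscarinic and adenosine receptors. RGS2, which acts mainly on Gq, is known in blood vessels and heart as a brake on these receptors and as a target of the cGMP-dependent protein kinase. The transcripts of 10 RGS genes are described here, Rgs1, Rgs2, Rgs3, Rgs4, Rgs5, Rgs6, Rgs10, Rgs12, Rgs14 and Rgs16. They are 10 of 18193 genes measured, and every probe set annotated with exactly one of these symbols was taken, which gave 26 of the 45101 probe sets in the table. The genes were chosen by the intensities of Rgs2 in the same comparison of Rhau KO with Control that is described below, so that comparison is given for them as a description and not as a test.

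Heart RNA of adult C57BL/6J mice was hybridised to 4 Affymetrix mouse arrays, of which 2 bear the label Rhau KO and 2 the label Control. The Rhau KO mice had the genotype CAAG-ERT2-Cre;Rhau F/F, in which a broadly active promoter drives a Cre recombinase that tamoxifen switches on. The Control mice were Rhau F/F and carried no Cre. Both genotypes carry the floxed Rhau alleles (Rhau is also called Dhx36) and both received 5 doses of tamoxifen at 2 months of age, and RNA was taken 2 months later. Because Control mice carry no Cre, the activated recombinase and the loss of Rhau cannot be told apart. The labels do not say whether replicates came from separate animals, so standard errors measure only the spread between these arrays.

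The values are MAS 5.0 intensities, a linear signal per probe set in arbitrary units that was scaled to the same trimmed mean on each array. Readings under 100 are called dim below, and each array had between 51.7% and 54.0% of its probe sets there. Dhx36 was higher in the arrays labelled Rhau KO on each of its 3 probe sets, at 627 and 537 in Rhau KO against 156 and 172 in Control on the one with the widest gap, which runs against the labelled deletion, so directions below are by array label. Control replicate 1 stood apart. Of 12 markers of ventricular cardiomyocytes, 9 were over 2-fold lower in it than in each other array, and 10 markers of skeletal muscle summed to 421542 in it against 541 to 949 in the other 3 arrays. Control replicate 2 was high in a part of the heat shock and immediate early genes. Of 13, 7 were over 2-fold higher in it than in each other array, among them Hspa1a, Fos and Egr1. Nr4a1 was instead highest in Control replicate 1 (6912 against 4044.5 in Control replicate 2), and Fosb was dim on all arrays. The 13 summed to 36801 and 33026 in the Rhau KO arrays, 26553 in Control replicate 1 and 132665 in Control replicate 2. Differences of the RGS genes are therefore given with and without Control replicate 1.

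Rgs2 was higher in both arrays labelled Rhau KO than in both labelled Control on all 4 of its probe sets. On 1419247_at it read 2788 and 2543 in Rhau KO against 382 and 975 in Control. On 1419248_at it read 2780 and 2646 in Rhau KO against 458 and 917 in Control. On 1447830_s_at it read 2053 and 1698 in Rhau KO against 296 and 639 in Control. The lower Rhau KO array was thus 2.61-fold to 2.89-fold above the higher Control array on these 3 probe sets. The fourth, 1443250_at, was dim on 3 arrays and read 77.9 and 109 in Rhau KO against 26.9 and 36.3 in Control, a gap of 2.15-fold. The 2 Rhau KO arrays lay close together, within 1.21-fold on the 3 bright probe sets, while Control replicate 1 was 2.00-fold to 2.56-fold below Control replicate 2 on them. The order of the arrays was the same on these 3 probe sets, with Control replicate 1 lowest, then Control replicate 2, then Rhau KO replicate 2 and Rhau KO replicate 1, of which the last pair differed least.

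On the log2 scale, Rhau KO minus Control, Rgs2 stood at 2.07 (standard error 0.38) on 1419248_at, 2.13 (0.48) on 1419247_at, 2.10 (0.42) on 1447830_s_at and 1.56 (0.52) on 1443250_at. Without Control replicate 1 the same values were 1.56, 1.45, 1.55 and 1.35, or 2.54-fold to 2.96-fold. The standard errors there were 0.12 to 0.56. They combine the spread of the Rhau KO pair with the spread that limma borrows from probe sets of like intensity. The lone Control is assumed to vary like that pair. Relative to Control replicate 1 alone, the mean of the Rhau KO arrays was 3.42-fold to 6.98-fold higher. The lone Control in the comparison without Control replicate 1 is the array with high heat shock and immediate early transcripts. Whether these transcripts have a part in the Rgs2 reading was not tested.

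**Figure D1:**
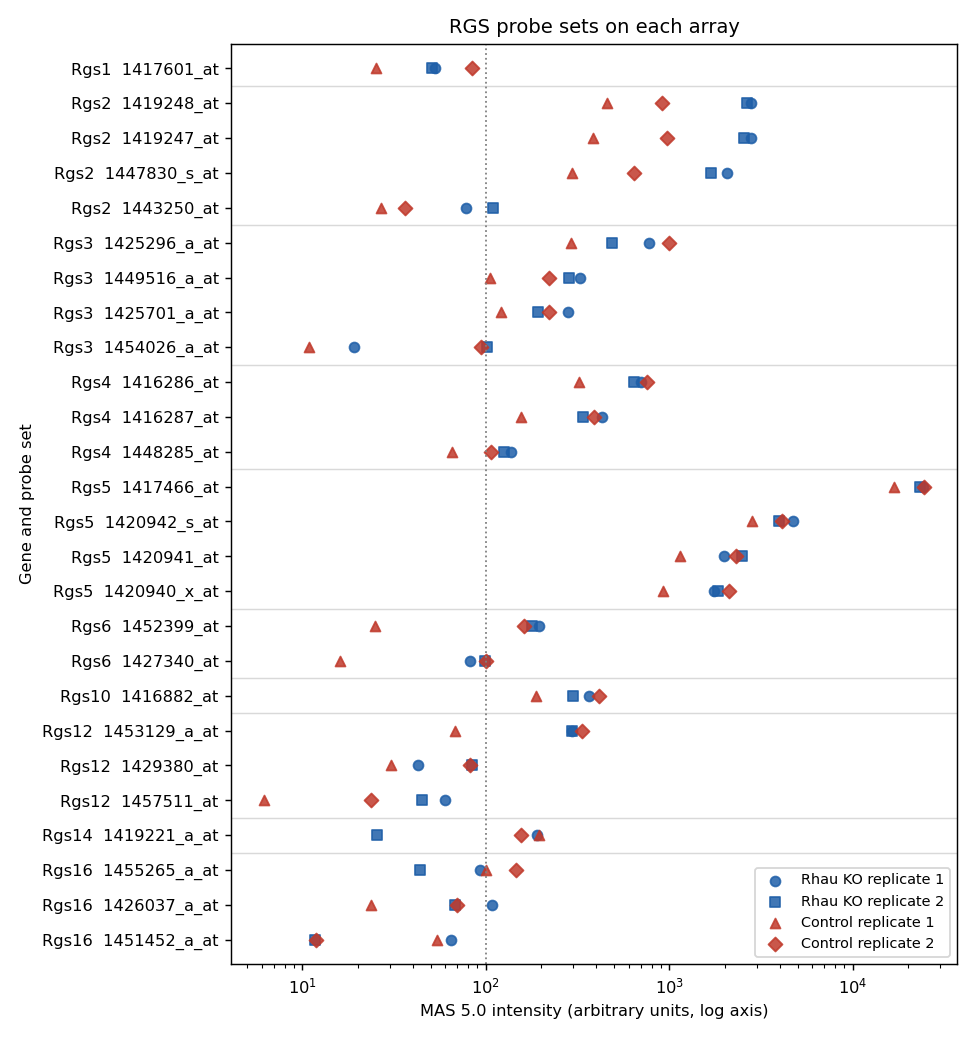
Intensity by MAS 5.0 in arbitrary units, on a log axis, of the 26 RGS probe sets, 1 row per probe set, with blue symbols for the Rhau KO label and red symbols for the Control label; the dotted line marks 100. On all 4 rows of Rgs2 both blue symbols lie right of both red ones, and on 23 of 26 rows the red triangle of Control replicate 1 lies furthest left.

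For Rgs2 and 3 other members the window from 250 bases before to 50 after the annotated start holds a CCAAT box, a common promoter element, read as CCAAT or, on the other strand, as ATTGG. They are shown because these 4 genes lie on the same chromosome and include the member with the widest gap. The windows come from RefSeq on the GRCm38.p6 build, and each is printed as 30 bases in the direction of the gene, with the motif in capitals.
Rgs2 (chr1:144004226-144004255, minus strand): gtctgcagcgagCCAATccgcgctctcttg
Rgs16 (chr1:153740273-153740302, plus strand): ccccactctcttATTGGtcggcgacgttcg
Rgs5 (chr1:169655422-169655451, plus strand): cccaggctgctgATTGGtcctcggagccac
Rgs4 (chr1:169747682-169747711, minus strand): acctgtcatctgATTGGctgccgggtgcgt
The motif begins 94 bases before the start in Rgs2, 68 in Rgs16, 67 in Rgs5 and 57 in Rgs4. A CCAAT box on either strand was found in 4 of the 10 windows of these genes (8 genes had at least 1) and in 37.4% of 32851 windows of all genes. The Rgs2 window also holds ACGTCA, the core of the cAMP response element (searched on both strands, with TGACGT), 186 bases before the start.
Rgs2 (chr1:144004318-144004347, minus strand): gatgcggcgcctACGTCAacagcgccctcg
It was in 1 of the 10 windows and in 7.51% of all windows. The TATA box TATAAA (or TTTATA) was in 3 of the 10 windows, in Rgs4 and both windows of Rgs3, against 13.6% of all windows. It begins 31 bases before the start in Rgs4, but 100 and 177 bases before it in the windows of Rgs3. These matches describe letters only.

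Of the 26 probe sets, 24 averaged higher on the log2 scale in Rhau KO with all 4 arrays, beside 56.6% of all probe sets, and 12 without Control replicate 1, beside 52.8%. The 4 probe sets of Rgs2 were higher both ways, so that of the other 22, 20 were higher with all arrays and 8 without Control replicate 1. Control replicate 1 was the lowest array on 23 of the 26 probe sets and on 19 of the 22 other than Rgs2, beside 37.5% of all probe sets, and on all 13 that read at least 100 on every array, against 43.2% of 18019 such probe sets on the whole array. The median log2 difference of the 22 probe sets other than Rgs2 was 0.45 with all arrays and -0.11 without Control replicate 1, beside 0.09 and 0.03 over all probe sets. The higher means of the RGS genes other than Rgs2 thus rested largely on the low reading of Control replicate 1. In these bulk arrays, fewer cells of a type and less RNA per cell cannot be told apart.

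Both Rhau KO arrays lay above both Control arrays on 8 of the 26 probe sets, beside 21.4% of all probe sets, and below both on 1, beside 14% of all probe sets. The 8 were the 4 of Rgs2 and 1 each of Rgs3, Rgs4, Rgs6 and Rgs12, and the 1 was of Rgs16. A wider gap, of at least 2-fold between the lower Rhau KO array and the higher Control array, was seen on 4, all of them Rgs2, beside 2.18% of all probe sets. At the thresholds the study used for its arrays, a fold of at least 2 and an unadjusted p under 0.05, limma called 4 of the 26 as higher, again those of Rgs2, where 1.88% of all probe sets were called higher. By limma, 0 of the 26 passed an adjusted p under 0.05 and 0% of all 45037 probe sets did, while 4 of the 26 and 1892 of all, or 4.2%, had an unadjusted p under 0.05. Over all probe sets the methods' t-test, run as a two-sided test, gave 0 adjusted and 2374 unadjusted calls. At the study's thresholds it called 1 of the 26, a probe set of Rgs2, beside 1047 of all 45037. Without Control replicate 1, 3 probe sets of Rgs2 passed both thresholds, beside 3.28% called higher of all, and the same 3 passed the adjusted threshold, beside 0.293% of all. Since the genes were proposed from this comparison, nothing is read from these counts.

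**Figure D2:**
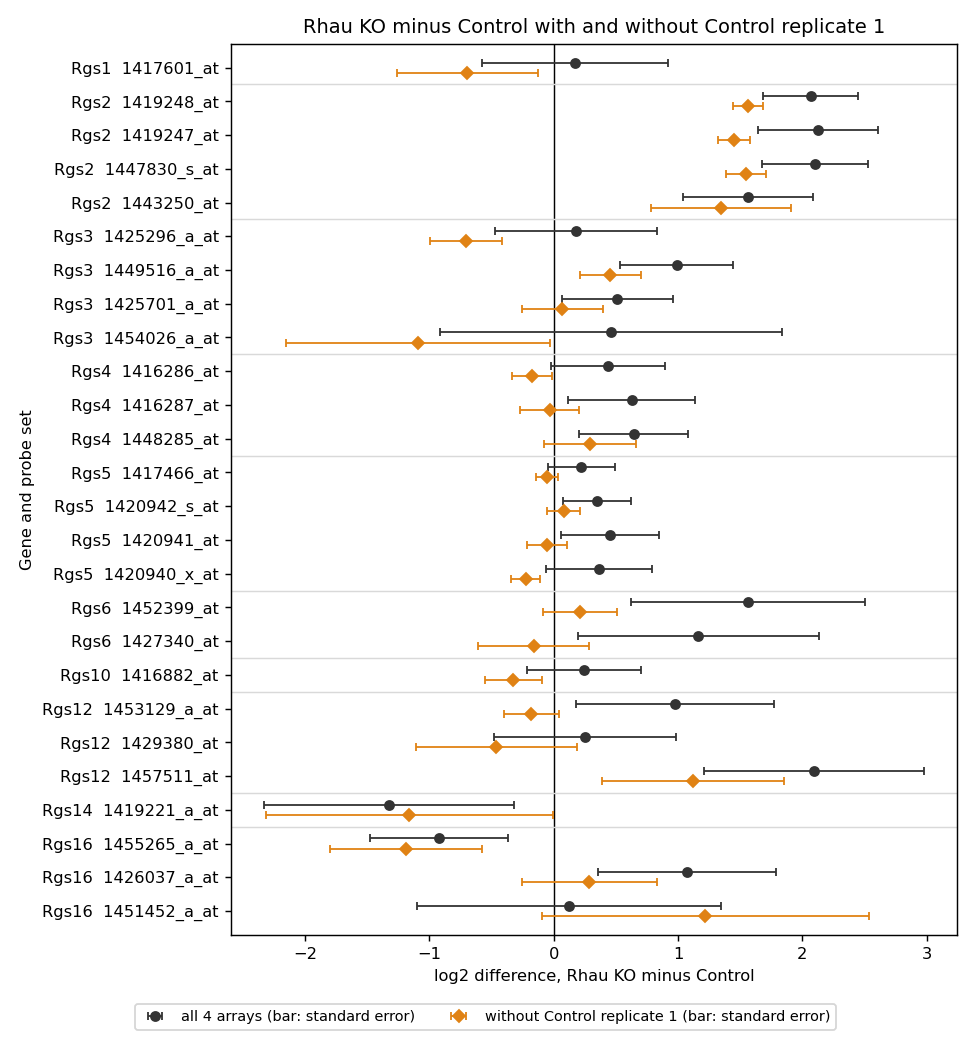
Log2 difference, Rhau KO minus Control, of each RGS probe set with all 4 arrays (black circles) and without Control replicate 1 (orange diamonds), with bars of 1 standard error from limma. All 8 values of Rgs2 lie between 1.35 and 2.13, while the orange diamonds of Rgs4 and Rgs5 lie between -0.23 and 0.29.

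Among the RGS proteins that like RGS2 are small and carry little beyond the RGS domain, Rgs4 and Rgs5 are neighbours on chromosome 1. Rgs5 is known as a marker of pericytes and arterial smooth muscle. On its brightest probe set, 1417466_at, it read 24040 and 23286 in Rhau KO against 16699 and 24594 in Control. On 1420942_s_at it read 4717 and 3967 in Rhau KO against 2813 and 4093 in Control. The Rhau KO arrays lay within the Control range or close to its upper end, and Control replicate 1 was the low one. On 1420941_at Rgs5 read 1986 and 2479 in Rhau KO against 1139 and 2305 in Control. The last, 1420940_x_at, is of a type that can bind related transcripts, and it read 1752 and 1848 in Rhau KO against 928 and 2106 in Control. The log2 difference of Rgs5 was 0.22 to 0.45 with all arrays and -0.23 to 0.08 without Control replicate 1, a range that holds 0. Of 12 markers of pericytes and smooth muscle, 3 were over 2-fold lower in Control replicate 1 than in each other array, so that array was low for part of the list as it was for Rgs5. Kcnj8, a pericyte channel subunit among the 3, read 2095 and 2218 in Rhau KO against 996 and 2005 in Control. Other markers went the other way between Control replicates 1 and 2, among them the smooth muscle genes Acta2 (4452 and 2590) and Myh11 (372 and 222). So did Tagln (860 and 621) and Cnn1 (90.0 and 16.2), and Abcc9 was nearly level (9912 and 9999). The list summed to 45966 and 42887 in Rhau KO against 41611 and 38462 in Control, and 21491 of the sum in Control replicate 1 was Des, desmin, which striated muscle also expresses. None of the 12 was dim on all arrays. Both Rhau KO arrays were above both Control arrays for 3 of the 12 (Pdgfrb, Kcnj8 and Acta2), beside 21.7% of all genes. They were below both for 1 (Des), beside 14% of all probe sets. The part of these cells in the reading of Rgs5 was not tested.

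Rgs4, which acts on both Gi and Gq and in the mouse heart limits muscarinic slowing of the sinus node, had 3 probe sets. On 1416286_at it read 702 and 639 in Rhau KO against 323 and 756 in Control. On 1416287_at it read 430 and 337 in Rhau KO against 156 and 389 in Control. The groups overlapped on both. On 1448285_at it read 136 and 125 in Rhau KO against 65.6 and 107 in Control, so the groups were apart by 1.17-fold. The log2 difference of Rgs4 was 0.44 to 0.64 with all arrays (standard errors 0.44 to 0.51), and -0.18, -0.03 and 0.29 without Control replicate 1.

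Rgs16, a small RGS protein induced by stimuli in liver and immune cells, was dim or near 100 but for 1 reading of 145 in Control replicate 2. On 1455265_a_at it read 92.6 and 43.8 in Rhau KO against 101 and 145 in Control, the only member probe set on which both Rhau KO arrays were below both Control arrays. On 1426037_a_at it read 108 and 67.8 in Rhau KO against 23.6 and 70.0 in Control. On 1451452_a_at it read 64.3 and 11.7 in Rhau KO against 53.9 and 11.8 in Control, so that replicate 1 of each group was high and replicate 2 low. The 3 probe sets did not run one way, with log2 differences of -0.92, 1.07 and 0.12. Without Control replicate 1 these were -1.19, 0.29 and 1.22. On the last, quantile normalization gave -0.06 with all arrays, and centring each array on its median gave -0.002. Rgs1, which limits chemokine signals in lymphocytes, had a single probe set, dim on every array, at 53.0 and 50.6 in Rhau KO against 25.1 and 84.0 in Control. Rhau KO minus Control was 0.18 on the log2 scale (standard error 0.75) and turned to -0.70 without Control replicate 1, so no difference was detectable at that level.

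Rgs10, a small RGS protein known from macrophages and microglia, read 365 and 298 in Rhau KO against 188 and 413 in Control. Its groups overlapped, and Rhau KO minus Control was 0.24 on the log2 scale (standard error 0.46) or -0.32 without Control replicate 1. The 12 leukocyte markers summed to 13765 and 13724 in Rhau KO against 6228 (replicate 1) and 14095 (replicate 2) in Control, with 4 of them dim on all arrays. Control replicate 1 was thus the low array for Rgs10 and for this marker sum. Of the 12 markers, 3 were over 2-fold lower in it than in each other array, while Cd3e and Ms4a1, both dim, were highest there. The relation of Rgs10 to these markers was not tested.

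Rgs6 belongs to the RGS proteins that bind the G beta subunit GNB5, and in mice it limits the slowing of the heart through G protein gated potassium channels. On 1452399_at it read 196 and 179 in Rhau KO against 24.9 (replicate 1) and 161 (replicate 2) in Control. On 1427340_at it read 81.9 and 99.0 in Rhau KO against 16.1 (replicate 1) and 101 (replicate 2) in Control. Control replicate 1 alone was low, and Control replicate 2 was close to the Rhau KO arrays. The log2 difference of Rgs6 was 1.56 (standard error 0.94) and 1.16 (0.97) with all arrays, and 0.21 and -0.16 without Control replicate 1. Kcnj3 and Kcnj5, which encode the channel subunits of the atria and nodes, read 1676 and 1406 (Kcnj3) and 1077 and 944 (Kcnj5) in Rhau KO. In Control replicate 1 they read 50.9 and 3.6, and in Control replicate 2 1007 and 859, so they shared the low reading of Control replicate 1 with Rgs6. So did 9 of the 12 ventricular cardiomyocyte markers, so that low reading is not particular to Rgs6 and these channels. Of 6 atrial and nodal markers measured, 3 were dim on all arrays, Myl7 among them, and the cells behind the channel readings were not tested. Gnb5 itself read 1037 and 1072 in Rhau KO against 569 and 888 in Control on its brightest probe set, a log2 difference of 0.57 (standard error 0.30), or 0.25 without Control replicate 1, which turned to -0.23 with the mean of all its probe sets.

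Rgs3 and Rgs12 encode large proteins with several transcripts, and their probe sets differed among themselves. On its brightest probe set, 1425296_a_at, Rgs3 read 775 and 485 in Rhau KO against 292 and 999 in Control. On 1449516_a_at it read 326 and 283 in Rhau KO against 105 and 221 in Control, and the groups were apart. On 1425701_a_at it read 281 and 193 in Rhau KO against 121 and 222 in Control, and the groups overlapped. The fourth, 1454026_a_at, was dim on 3 arrays and read 19.2 and 101 in Rhau KO against 10.9 and 94.3 in Control. With all arrays the log2 differences of the 4 were 0.18, 0.99, 0.51 and 0.46 (standard errors 0.45 to 1.37), all higher in Rhau KO. Without Control replicate 1 they were -0.71, 0.46, 0.07 and -1.09, so they then did not run one way. Which transcript each one reads is not given in the sources used here.

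Rgs12, a scaffold with an RGS domain that acts on Gi, read 297 and 293 in Rhau KO against 67.6 (replicate 1) and 334 (replicate 2) in Control on its brightest probe set, 1453129_a_at. There the log2 difference was 0.97 (standard error 0.80) with all arrays and -0.18 without Control replicate 1. On 1457511_at, dim on every array, it read 59.6 and 44.7 in Rhau KO against 6.2 and 23.7 in Control, a log2 difference of 2.09 (standard error 0.89). That difference was 1.12 without Control replicate 1 and 0.86 with a pseudocount of 32. On 1429380_at, also dim, it read 42.5 and 84.0 in Rhau KO against 30.5 and 82.1 in Control, with overlapping groups and log2 differences of 0.25 with all arrays and -0.46 without Control replicate 1. Rgs14, which binds Gi and Ras proteins, read 190 and 25.6 in Rhau KO against 195 and 156 in Control. Rhau KO replicate 2 alone was low, and the log2 difference of -1.32 was 0.13 without it, and -1.16 without Control replicate 1.

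Of the 10 genes, 5 lie on chromosome 1, and Rgs2 and Rgs1 are neighbours of Rgs13 there. Rgs13, an RGS gene of B cells, was dim at 19.7 and 15.1 in Rhau KO against 3.8 and 16.3 in Control. Uchl5, on the other side of Rgs2, read 1630 and 1685 in Rhau KO against 2781 and 1343 in Control, and its groups overlapped. Rgs8, next to Rgs16, was dim at 36.5 and 12 in Rhau KO against 49.3 and 56.2 in Control, so both Rhau KO arrays were lower. On these arrays, neither neighbour of Rgs2 had groups that were apart.

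Across the 4 arrays, the genes most like Rgs2 were Acot2, Acot1, Trmt5, Slc36a2 and Igsf1. Likeness was the root mean square difference of log2 values centred on their mean, over 9095 brighter genes, and it was 0.19 to 0.24 for these 5, against a median of 1.07. Acot2 and Acot1 encode the mitochondrial and cytosolic acyl-CoA thioesterases, whose transcripts are close relatives and may share probes. Acot2 read 4843 and 4954 in Rhau KO against 809 and 2205 in Control, and Acot1 read 562 and 382 in Rhau KO against 73.9 and 137 in Control. Trmt5, a tRNA methyltransferase, read 2095 and 2133 in Rhau KO against 329 and 990 in Control. In each of the 5 genes Control replicate 1 was lowest and both Rhau KO arrays were above both Control arrays. That order follows from choosing them by likeness to Rgs2, so nothing is read from it. Of the other RGS members bright enough to be compared, Rgs12 was nearest at 0.71 and Rgs4 next at 0.82.

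**Figure D3:**
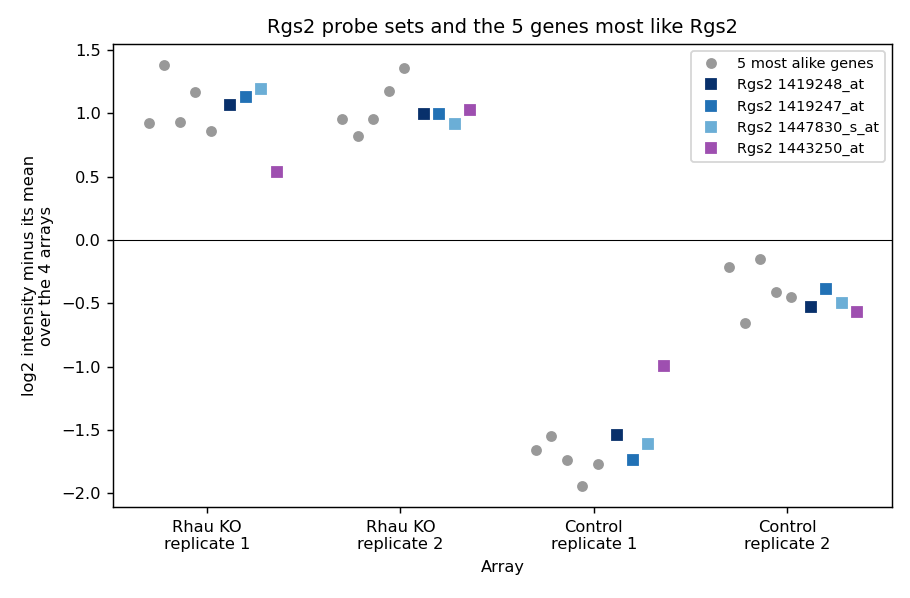
Log2 intensity minus its mean over the 4 arrays for the 4 probe sets of Rgs2 (squares) and for the 5 genes most like Rgs2 (grey circles), with symbols side by side within an array. All squares lie above 0 in both arrays labelled Rhau KO and below 0 in both labelled Control, and lowest in Control replicate 1.

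The other genes of G protein signaling are given from 9 lists, with the brightest probe set for each gene. Of 115 genes listed, 102 were measured. With all arrays 70 of them averaged higher in Rhau KO, beside 56.9% of all genes. Without Control replicate 1 it was 44, beside 52.8% of all genes. The same 2 shares stand beside the direction counts of each list below. The median log2 difference of the 102 was 0.24 with all arrays and -0.08 without Control replicate 1, beside 0.09 and 0.03 over all 18193 genes. At the study's thresholds limma called 1 of the 102 higher and 2 lower, beside 1.65% of all genes called higher and 1.64% called lower. These were Gng13 (higher), Prkca and Ric8b (lower). Ric8b, a chaperone for the Gs alpha subunit, read 1344 and 1371 in Rhau KO against 4212 and 2748 in Control, a log2 difference of -1.33 (standard error 0.28), and -1.02 without Control replicate 1. Prkca, the protein kinase C isoform downstream of Gq, read 490 and 476 in Rhau KO against 2340 and 836 in Control, with -1.53 (0.54) on the log2 scale and -0.79 without Control replicate 1, where it was no longer called. Gng13, a G gamma subunit, was dim at 68.8 and 56.4 in Rhau KO against 24.4 and 14.7 in Control, with 1.72 (0.59) on the log2 scale and 2.08 without Control replicate 1. With the mean of all probe sets in place of the brightest, none of these 3 was called, at -0.99 for Ric8b, -0.67 for Prkca and 0.79 for Gng13, and without either Rhau KO array 0 of the 102 were.

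Among the G alpha subunits, 0 of 13 passed those thresholds with all arrays. Gnaq, the main target of RGS2, read 1070 and 974 in Rhau KO against 870 and 1247 in Control, and its groups overlapped. Gna11, its close relative, read 3325 and 3560 in Rhau KO against 2301 and 3579 in Control. Gnai2, a Gi subunit, read 3631 and 4032 in Rhau KO against 2208 and 4508 in Control. For these 3 the log2 difference was -0.03 to 0.28. Gnas, the Gs alpha subunit, read 20679 and 20753 in Rhau KO against 24187 and 21766 in Control, and its groups were apart by a log2 difference of only -0.15 (standard error 0.19), or -0.07 without Control replicate 1, which turned to 0.22 with the mean of all its probe sets. Without Control replicate 1, 12 of the 13 G alpha genes were lower in Rhau KO, and 1 was past the thresholds, beside 1.54% of all genes called lower. In that comparison 52.8% of all genes were higher, and the lone Control is the array with high heat shock and immediate early transcripts. The G alpha gene past the thresholds there was Gna12, chosen after its values were seen. It read 1817 and 1609 in Rhau KO against 643 and 3857 in Control. Among the G beta and gamma subunits Gnb3, likewise, read 201 and 168 in Rhau KO against 94.0 and 988 in Control and passed only without Control replicate 1.

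Of the Gq effectors, 8 of 13 were higher with all arrays and 4 without Control replicate 1. Plcb1, a phospholipase C, read 357 and 480 in Rhau KO against 211 and 425 in Control, and its groups overlapped. Plcb3, another, read 437 and 431 in Rhau KO against 288 and 398 in Control, with a log2 difference of 0.36 (standard error 0.30). Of 17 receptors coupled to Gq or Gi, 14 were higher with all arrays and 8 without Control replicate 1, and 0 passed the thresholds. Agtr1a, the angiotensin II receptor, read 1306 and 1483 in Rhau KO against 222 (replicate 1) and 1643 (replicate 2) in Control. Rhau KO minus Control was 1.20 on the log2 scale (standard error 0.98) with all arrays and -0.24 without Control replicate 1.

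Of 12 genes of the cGMP pathway that leads to RGS2, 8 were higher with all arrays and 4 without Control replicate 1, and 0 passed. Prkg1, the cGMP-dependent kinase, read 893 and 810 in Rhau KO against 2265 and 1056 in Control, a log2 difference of -0.86 (standard error 0.42), and -0.31 without Control replicate 1. Of 6 receptor kinases and arrestins, 5 were higher, and 0 passed. The list of other RGS genes also holds the binding partners Gnb5, Rgs7bp and Rgs9bp. Of its 12 measured genes, 9 were higher with all arrays and 7 without Control replicate 1, and 0 passed with all arrays. All 4 genes of the G protein gated potassium channels were higher with their groups apart, beside 21.7% of all genes, and 0 passed. Kcnj6 and Kcnj9 were dim on all arrays, and the mean of all their probe sets put them at -0.18 and 0.03 on the log2 scale. Without Control replicate 1 Kcnj3 was at 0.61 and Kcnj5 at 0.23. Of the 12 other regulators of G alpha subunits 9 were higher, and Ric8b, given above, was the 1 that passed.

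**Figure D4:**
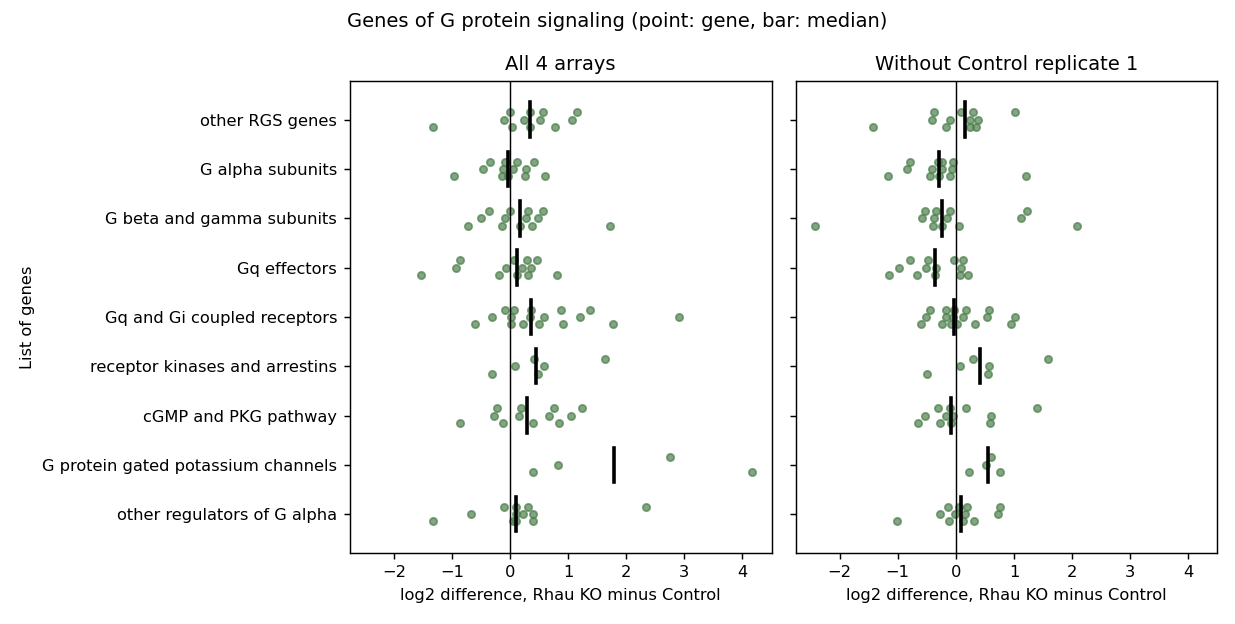
Log2 difference, Rhau KO minus Control, of the 102 measured genes in 9 lists of G protein signaling (point: gene; black bar: median of the list), with all 4 arrays on the left and without Control replicate 1 on the right. The median of all 9 lists together is 0.24 on the left and -0.08 on the right.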

How the data were processed

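Per the labels and the methods of the study, total heart RNA was amplified, labelled with biotin and hybridised to Affymetrix mouse arrays, 2 per group. The authors computed the deposited intensities with the MAS 5.0 algorithm in GeneSpring, which scales each array to a common trimmed mean (here 500.0 on each array). No detection calls or scan dates were used, and the number of arrays limits the precision. The 64 control probe sets were left out, and log2 values of the other 45037 were fitted with limma 3.58.1 (R 4.3.3, lmFit, then eBayes with a trend), with p-values adjusted over all of them by the Benjamini-Hochberg method. Differences are Rhau KO minus Control. For lists, each of 18193 genes was represented by its brightest probe set with 1 symbol. Calls used an adjusted p under 0.05 or the study's thresholds. With 2 arrays a group, the smallest p of an exact two-sided permutation test is 0.333.

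Every probe set of the 10 genes is given. Of the lists, 13 genes were named whatever their values (Chrm2 and Grk2 were not matched to the table, so 11 are shown), with up to 3 per list among those at the study's thresholds, RGS neighbours and the 5 genes most like Rgs2. Members and lists were chosen with earlier results of these data known. Promoter windows were matched by symbol for 8 of the 10 genes. Alternatives were quantile normalization, median centring, a pseudocount of 32, no trend, brighter features only, the methods' t-test, the mean of a gene's probe sets, the replicate number as a block and leaving out each array. Python 3.11.15, numpy 2.4.6, pandas 2.3.3 and matplotlib 3.10.9 were used.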

Additional observations from a re-analysis of the deposited data

How the results depend on the processing

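Under the alternatives run on single probe sets, the 4 probe sets of Rgs2 stood at 0.97 (1443250_at with a pseudocount of 32) to 2.80 on the log2 scale. Leaving out 1 array could not turn their sign, because both Rhau KO arrays lay above both Control arrays on each. The block, the methods' t-test and the fit without a trend leave the difference itself unchanged. The sign under these alternatives is therefore no added support. The number of RGS probe sets higher in Rhau KO was 24 of 26, and 12 to 23 when 1 array was left out, the lowest without Control replicate 1. With the replicate number as a block it was 24, and 3 RGS probe sets and 1606 of all passed the study's thresholds, against 4 and 1514 without it. The deviations of same-numbered arrays correlated at 0.003. Because Control replicate 1 stood apart, that value cannot tell whether same-numbered arrays share more than a number. By the methods' t-test 1 RGS probe set passed, a probe set of Rgs2, beside 1047 of all probe sets. Leaving out Control replicate 2 makes the array with skeletal muscle transcripts the lone Control. Rgs2 then stood at 1.775 to 2.803 on the log2 scale.

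Of all probe sets, 1514 passed the study's thresholds, 434 among the brighter ones alone, 744 with a pseudocount of 32, and 898 to 7016 when 1 array was left out. At an adjusted p under 0.05 the count was 0, and 0 to 6286 when 1 array was left out. Of genes, 599 passed, 167 among the brighter alone, 351 by the methods' t-test, 338 with a pseudocount of 32 and 285 to 3282 when 1 array was left out, with 0 to 4097 at the adjusted threshold. Of the 102 genes in the lists 3 passed, 1 among the brighter alone, 1 by the methods' t-test and 0 to 26 when 1 array was left out. The mean of all probe sets put Rgs16 at 0.09, against -0.92 on its brightest. The cause was not tested. Readings under 100 limit what can be said of Rgs1, Rgs16 and 2 of the 3 probe sets of Rgs12, and Rgs14 rests on a single probe set with 1 low array.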
